A study of Mus musculus with 4 samples.

Results

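CXC chemokines are small secreted proteins that call leukocytes into tissue, and the 10 genes described here are 8 ligands of the family (Cxcl1, Cxcl2, Cxcl9, Cxcl10, Cxcl12, Cxcl13, Cxcl14 and Cxcl16) and 2 receptors (Cxcr2 and Cxcr4). They were taken by name from the 20076 genes of a single-cell RNA-seq count matrix of whole mouse lung, and each was followed through the cell classes that make or receive it. The libraries labelled WT came from ERG fl/fl mice (n = 2) and those labelled ERG CKO from CDH5-CreER(T):ERG fl/fl mice (n = 2), in which a tamoxifen-activated Cre driven by the promoter of Cdh5, an endothelial cadherin gene, removes the floxed part of the ETS transcription factor gene Erg. Mice of both genotypes carried the floxed allele and received 5 daily injections of 0.5 mg tamoxifen, and lungs were taken 90 days later and dissociated with enzymes into a single-cell suspension. Each library is 1 suspension of all lung cells, so loss or gain of fragile cell types during dissociation is part of every value below.

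The 4 libraries held 1852 to 3097 cells and 11263911 to 18646776 unique molecular identifiers (UMIs, each standing for 1 captured RNA molecule), with library medians of 4611 to 4899 UMIs per cell. Cells were placed in 17 named classes by clustering and fixed marker genes, and 1040 of the 9363 cells (11.1%), in 2 clusters, stayed unnamed. The class named fibroblast (418 cells) was mixed when clustered again. Only 104 of its cells fell in named fibroblast subtypes, while subcluster 1 (104 cells) carried 8 of 8 endothelial markers, subcluster 0 (123 shallow cells) was led by platelet genes and subcluster 3 (69 cells) matched alveolar type 1 epithelium, so its values below are those of the class and not of fibroblasts alone. Epithelial cells had medians of 18045 and 20738.5 UMIs in WT and 2370 and 797 in ERG CKO. Mural cells had 5295.5 and 3643.5 against 1979 and 915. A single epithelial cluster gave 27 of 57 and 9 of 30 epithelial cells in WT, and 46 of 62 and 32 of 42 in ERG CKO. Only 7 barcodes occurred in more than 1 library. Xist was counted only in replicate 1 and Ddx3y only in replicate 2 of each genotype, so sex moved with the replicate number and not with genotype. Erg itself stood at 85.5 and 89.2 CPM (a gene's UMIs scaled to a total of 1000000 for the class and library) in the endothelial cells (ECs) of the WT libraries and at 105.8 and 82.2 CPM in those of ERG CKO. These values overlap (edgeR log2 fold change 0.08 ± 0.16, SE, adjusted p = 0.883), and a count over the whole gene does not separate transcripts with and without the floxed part, so it does not check the labels. Replicates are 2 libraries per genotype, and the p-values measure only the spread between them. An exact permutation test of 2 against 2 could not go below p = 0.333, so tests were made in edgeR across all genes of a class.

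As background, CXC ligands fall into groups by receptor. Cxcl1 and Cxcl2 draw neutrophils through Cxcr2, Cxcl9 and Cxcl10 are induced by interferons and draw activated T and NK cells through Cxcr3, and Cxcl12 holds and positions cells that carry Cxcr4. Cxcl13 organises B cells through Cxcr5, Cxcl16 is a membrane-bound ligand of Cxcr6 that also acts as a scavenger receptor, and Cxcl14 is made by stromal and epithelial cells. In the lung, endothelium both makes several of these ligands and displays them to passing leukocytes.

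On mm10, in the GENCODE annotation, 5 of the ligands lie on chromosome 5 as neighbouring pairs and a single gene. Cxcl1 (5:90891241-90893115, plus strand) ended 10.8 kb before Cxcl2 (5:90903871-90905938, plus strand) began, and Cxcl9 (5:92321347-92328079) and Cxcl10 (5:92346638-92348889), both on the minus strand, were 18.6 kb apart. Cxcl13 lies further along at 5:95956951-95961068. Cxcl12 (6:117168535-117181367), Cxcl14 (13:56288643-56296551), Cxcl16 (11:70453983-70459984), Cxcr2 (1:74153989-74161246) and Cxcr4 (1:128588199-128592293) lie elsewhere.

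The 250 bases before the RefSeq transcription start are printed for the 5 ligands whose endothelial levels are compared first below, because both neighbouring pairs and Cxcl12 carry the endothelial results. They were read from the RefSeq table of GRCm38.p6, which gave a promoter for 9 of the 10 genes (no Cxcl16). Each runs 5′ to 3′ on the gene's own strand, and capitals mark every match, on either strand, to 3 motifs: GGG and TTCC with any 3 bases between them (NF-kB-like), GAAA and GAAA with any 2 bases between them (interferon-response-like), and AC and GGAAG with any 1 base between them (ETS-like). Cxcl1 is 5:90890995-90891244, Cxcl2 is 5:90903649-90903898, Cxcl9 is 5:92328080-92328329, Cxcl10 is 5:92348890-92349139 and Cxcl12 is 6:117168285-117168534.
Cxcl1: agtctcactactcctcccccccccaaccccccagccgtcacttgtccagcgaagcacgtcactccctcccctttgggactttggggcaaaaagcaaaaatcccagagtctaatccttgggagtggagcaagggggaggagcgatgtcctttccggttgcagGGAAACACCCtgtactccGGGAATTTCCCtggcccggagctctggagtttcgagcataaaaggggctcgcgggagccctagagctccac
Cxcl2: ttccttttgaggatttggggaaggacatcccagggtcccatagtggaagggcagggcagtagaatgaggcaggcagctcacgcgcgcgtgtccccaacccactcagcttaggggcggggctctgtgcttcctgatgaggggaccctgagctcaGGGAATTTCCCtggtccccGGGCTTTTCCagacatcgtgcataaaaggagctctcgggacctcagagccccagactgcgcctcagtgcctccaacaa
Cxcl9: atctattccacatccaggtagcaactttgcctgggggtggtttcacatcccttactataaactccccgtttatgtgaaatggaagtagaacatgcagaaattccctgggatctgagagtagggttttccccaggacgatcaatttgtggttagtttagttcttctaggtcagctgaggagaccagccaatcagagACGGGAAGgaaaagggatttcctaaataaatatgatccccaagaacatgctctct
Cxcl10: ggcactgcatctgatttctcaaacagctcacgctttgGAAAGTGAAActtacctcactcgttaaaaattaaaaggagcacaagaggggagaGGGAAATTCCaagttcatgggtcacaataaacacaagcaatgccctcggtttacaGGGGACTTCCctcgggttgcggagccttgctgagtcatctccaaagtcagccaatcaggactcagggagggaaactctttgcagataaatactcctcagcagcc
Cxcl12: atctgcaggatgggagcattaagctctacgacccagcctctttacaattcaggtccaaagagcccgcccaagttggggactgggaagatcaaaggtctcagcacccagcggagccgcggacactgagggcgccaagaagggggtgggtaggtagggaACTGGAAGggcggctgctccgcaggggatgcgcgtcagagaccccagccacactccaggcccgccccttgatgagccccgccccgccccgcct
The NF-kB-like letters occurred in 3 of the 9 promoters (Cxcl1, Cxcl2 and Cxcl10) and in 4.65% of all 32851 promoters of the same length. Cxcl1 and Cxcl2 held 3 matches each, some of them overlapping, and the capitals of both include the run GGGAATTTCCC. The interferon-response-like letters occurred in Cxcl10 and Cxcl14 (2.98% of all promoters) and the ETS-like letters in Cxcl9 and Cxcl12 (6.57%). A match is only a description of the letters in this window.

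Each gene had its own set of source cells. Over the 4 libraries, ECs held 77.0% of the Cxcl12 UMIs, 57.2% of Cxcl10 and 48.1% of Cxcl9, and shared Cxcl16 with dendritic cells (29.5% in ECs and 29.9% in dendritic cells). Neutrophils and alveolar macrophages held 38.1% and 37.8% of Cxcl2. Cxcl1 was spread over alveolar macrophages (33.0%), neutrophils (15.7%), mural cells (11.3%), the fibroblast class (10.8%) and ECs (8.53%). The fibroblast class held 66.2% and mural cells, the pericytes and smooth muscle cells around vessels, 14.7% of Cxcl14, and interstitial macrophages held 96.2% of Cxcl13. Among the receptors, neutrophils held 85.8% of the Cxcr2 UMIs, while Cxcr4 was spread over non-classical monocytes (25.6%), T cells (19.0%), B cells (15.0%) and alveolar macrophages (12.2%).

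**Figure D1:**
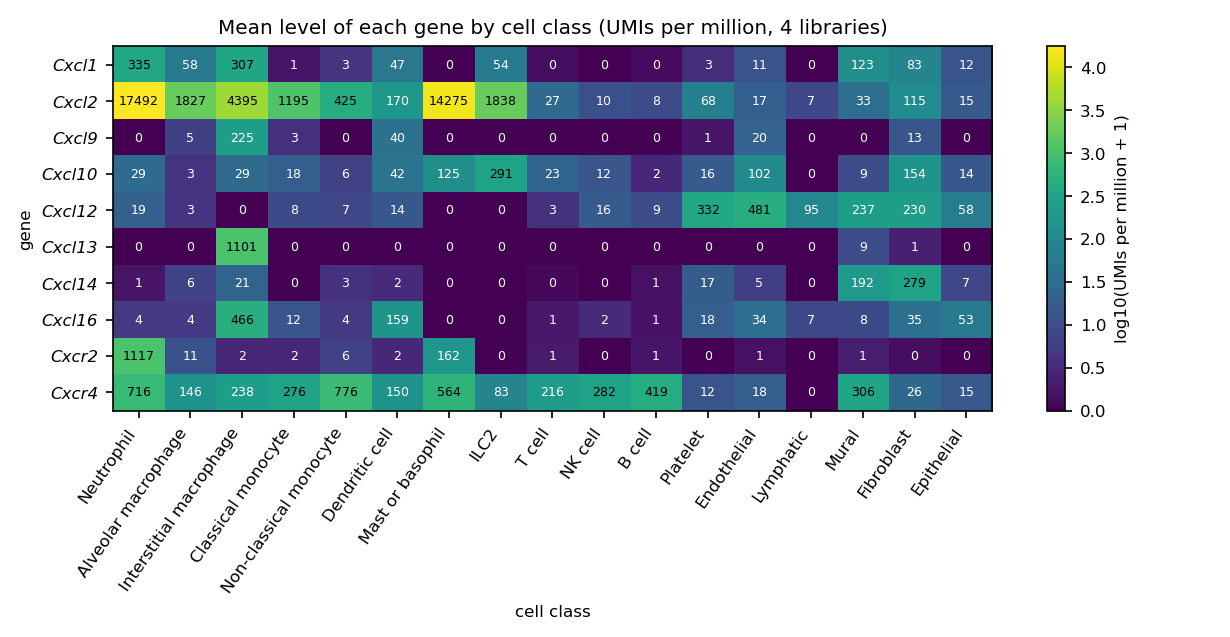
Level of the 10 genes in the 17 named cell classes, as the mean CPM of the 4 libraries on a colour scale. Cxcl2 and Cxcr2 are brightest in neutrophils, Cxcl13 in interstitial macrophages and Cxcl12 in ECs.

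The genes whose pattern over the 17 classes was most like that of each member, by Pearson correlation of mean log2 levels, followed those sources. For Cxcl12 these were Cyyr1 (r = 0.99), Gpihbp1 (r = 0.99), a capillary lipase anchor, and Ushbp1 (r = 0.99), for Cxcr2 Gm37800 (r = 0.97), Il23a (r = 0.96) and Hcar2 (r = 0.95), and for Cxcl14 Olfml3 (r = 0.98), Col5a1 (r = 0.97) and Arhgef25 (r = 0.97). Cxcl2 was most like Lilrb4a (r = 0.93), Lilr4b (r = 0.92) and the inflammasome sensor Nlrp3 (r = 0.91), and Cxcl13 like Ccl8 (r = 0.99), Pla2g2d (r = 0.98) and Mmp13 (r = 0.98). Zmynd15 was near both Cxcl9 (r = 0.96) and Cxcl16 (r = 0.90). The nearest patterns were less close for Cxcl1 (Slc40a1, r = 0.82) and Cxcl10 (Mettl15, r = 0.78), and for Cxcr4 the nearest was Adrbk1 (r = 0.92). The classes come from the same 4 libraries, so these r values are descriptions.

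Across the 13 classes with enough cells in every library, the 10 genes gave 49 tests of ERG CKO against WT and 1 call at adjusted p of at most 0.05. That call was Cxcl1 in ECs. At an unadjusted p under 0.05 there were 11, and DESeq2 called 2. Over all genes of these classes 0.521% of tests were called (427 of 81931). Sex moved with the replicate number, and with that number as a block edgeR called 8 of the member tests. The block also called more of all genes in ECs than the main fit (counts at the end), so the 8 are not read beside 0.521%. In ECs 8 of the 10 genes passed the low-count filter (all but Cxcl13 and Cxcr2), and 1 was called, higher in ERG CKO. Of all genes tested in ECs 2.85% were called (304 of 10676). At an unadjusted p under 0.05 there were 3 of the 8 members and 1721 of all 10676 genes. The median log2 fold change was 1.0 over the 8 genes and 0.0064 over all genes. Cxcl1 (0.4 and 1.6 CPM in WT) and Cxcl9 (0 and 2.8 CPM in WT) passed the filter through the ERG CKO libraries. The filter thus partly sets the median of the 8, and no rise of the family is read from it. In the other 12 classes edgeR called 0 of 41 tests and DESeq2 called 0, with 8 at an unadjusted p under 0.05, where edgeR called 0 to 0.734% of all genes. Genes at that unadjusted p there numbered from 55 of 1473 in platelets to 680 of 7926 in the fibroblast class.

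Cxcl1, a neutrophil attractant, rose from near 0 in ECs of the ERG CKO lungs. It stood at 0.4 and 1.6 CPM in WT (1 and 5 UMIs) and at 15.5 and 26.4 CPM in ERG CKO (71 and 70 UMIs). Both ERG CKO libraries were above both WT libraries. The edgeR log2 fold change was 4.23 ± 0.54 (SE, n = 2 per group, adjusted p = 0.0151), and the ratio of summed CPM was 19.0 with a 95% counting interval of 8.51 to 52.6 that covers counting error only. The call was kept in each of the 13 alternatives that could be run, with adjusted p of at most 0.0469. After cells were thinned to 1000 UMIs too few counts remained for a test.

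The Cxcl1 signal sat in few ECs. The share of ECs with a UMI was 0.18% and 0.29% in the WT libraries, and in the ERG CKO libraries 3.34% and 2.24% (0, 0.15%, 0.98% and 0.82% after thinning). In B cells, which are not a source of Cxcl1, 0.24% of all cells had one, at a median of 3936 to 5075 UMIs per cell beside 4021 to 5548 in ECs. Cells with at least 5 Cxcl1 UMIs numbered 0 and 0 in WT, as against 5 and 4 in ERG CKO, and these 9 cells held 69.4% of the endothelial Cxcl1 UMIs. All 9 had at least 3 UMIs of endothelial markers, 0 were called doublets, 0 had a UMI of the pan-leukocyte gene Ptprc, and they were spread over 5 endothelial subclusters. A neutrophil marker was found in 3 of them and an alveolar macrophage marker in 2. Without the 3 highest cells of every library the levels were 0 and 0 CPM in WT and 8.9 and 6.0 CPM in ERG CKO, and the difference was still called (adjusted p = 0.0231). Leukocyte markers were low in the summed ECs. Neutrophil markers summed to 12 and 21 CPM in WT and 26 and 33 CPM in ERG CKO (5 of 8 higher in both ERG CKO libraries, 0 at 0), and alveolar macrophage markers to 52 and 27 against 35 and 46 CPM (2 of 9 higher, 0 at 0). Interstitial macrophage markers summed to 172 and 152 against 267 and 162 CPM (4 of 7 higher, Folr2 at 0). Their part in the result was not tested.

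**Figure D2:**
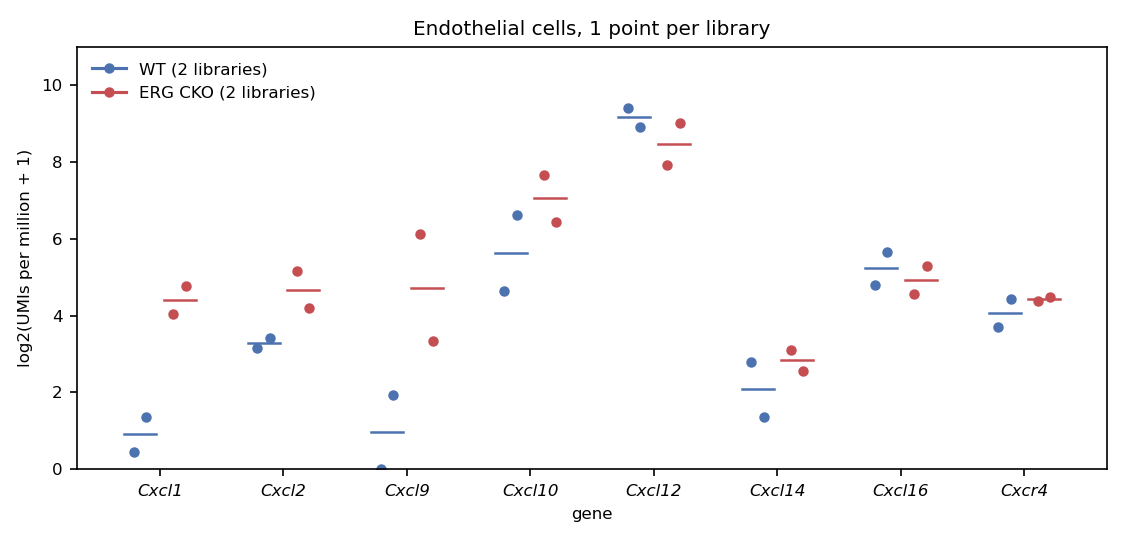
Endothelial level of the tested CXC genes in each library, as log2(CPM + 1), with WT and ERG CKO libraries in separate colours. The ERG CKO points lie above the WT points for Cxcl1, Cxcl2 and Cxcl9 and overlap them for Cxcl10, Cxcl12, Cxcl14, Cxcl16 and Cxcr4.

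Cxcl2, the neighbour of Cxcl1 and a ligand of the same receptor, was at 7.8 and 9.8 CPM in WT ECs and 34.6 and 17.4 CPM in ERG CKO ECs. The groups did not overlap, and the difference of 1.56 ± 0.37 on the log2 scale missed the threshold (edgeR adjusted p = 0.0844, DESeq2 adjusted p = 0.0354). It passed in edgeR without ERG CKO replicate 2 (adjusted p = 0.00098). The share of cells with a UMI overlapped that of B cells, which are not a source of it: 3.70% and 4.2% of WT ECs had a UMI, 7.38% and 6.10% of those of ERG CKO did, and in B cells the shares were 3.43% and 3.35% (WT), then 6.75% and 2.06% (ERG CKO). Of the 8 ECs with at least 5 Cxcl2 UMIs, 4 had Ptprc, 5 had an alveolar macrophage marker and 3 a neutrophil marker, and their median was 15105 UMIs. In thinned ECs the WT shares were 0.35% and 1.02%, and the ERG CKO shares 1.26% and 1.03%.

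Cxcl9, an interferon-gamma-induced ligand, was at 0 and 2.8 CPM in WT ECs and at 69.2 and 9.1 CPM in ERG CKO ECs. Both ERG CKO libraries were higher, and the difference of 4.69 ± 1.19 (log2) missed the threshold (edgeR adjusted p = 0.0971). It passed without ERG CKO replicate 2 (adjusted p = 3.04e-05). The counts came from very few cells, with 310 of the 318 UMIs of ERG CKO replicate 1 in 3 cells and 97.7% of all endothelial Cxcl9 UMIs in 6 cells. Dendritic cells had 184 of their 186 UMIs in ERG CKO replicate 1. Interstitial macrophages held 60 UMIs, the fibroblast class 55 and alveolar macrophages 53.

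Cxcl10, which recruits cells bearing Cxcr3, was at 23.9 and 96.7 CPM in WT ECs and at 201.8 and 86.4 CPM in ERG CKO ECs. The groups overlapped (log2 fold change 1.22 ± 0.59, edgeR adjusted p = 0.378). Without ERG CKO replicate 2 the difference was called (adjusted p = 0.0415). ECs with at least 5 Cxcl10 UMIs numbered 3 and 16 in WT, as against 41 and 15 in ERG CKO, and these 75 cells held 84.9% of the endothelial UMIs. Few of them were Cxcl1 cells. Of the 9 cells with many Cxcl1 UMIs 2 were among the 75, while 4 of the 6 Cxcl9 cells and 3 of the 8 Cxcl2 cells were, and Cxcl1 shared 0 such cells with Cxcl2 or Cxcl9.

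**Figure D3:**
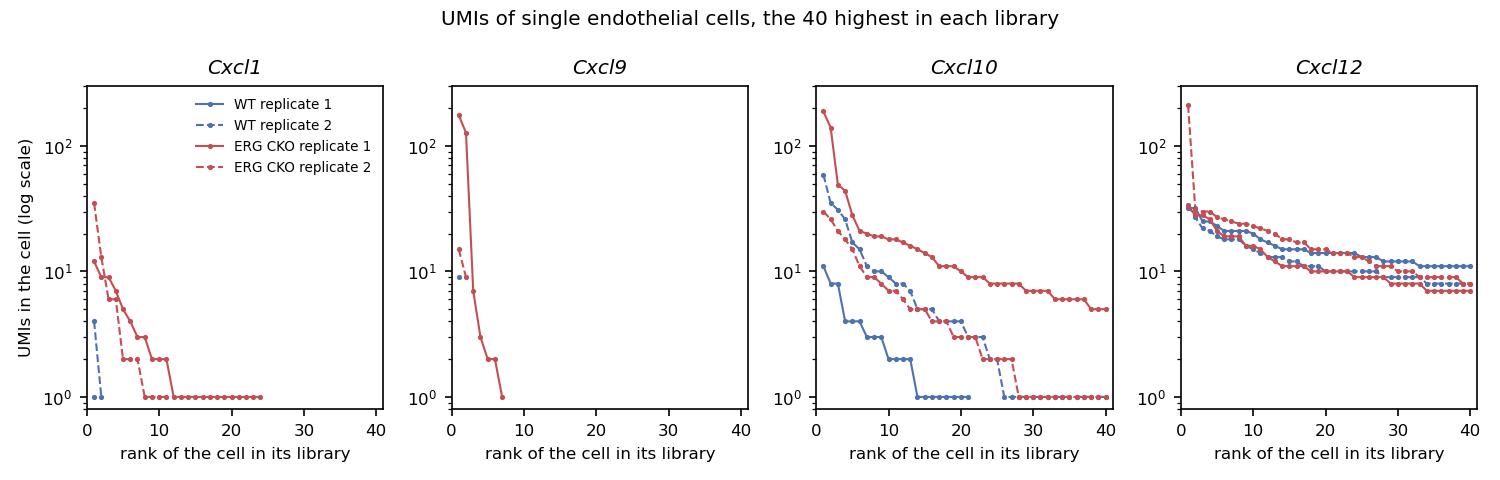
UMIs of Cxcl1, Cxcl9, Cxcl10 and Cxcl12 in the 40 ECs with most UMIs of each gene, ranked within each library. Cxcl1 and Cxcl9 fall to 0 within few cells, Cxcl10 runs on furthest in ERG CKO replicate 1, and Cxcl12 is carried by all 40 cells of each library, with a single cell of 211 UMIs in ERG CKO replicate 2.

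Cxcl12, the Cxcr4 ligand that capillary ECs make in quantity, was at 684 and 480 CPM in WT ECs and at 242 and 516 CPM in ERG CKO ECs. ERG CKO replicate 1 was the lowest and the other ERG CKO library lay between the WT libraries (log2 fold change -0.67 ± 0.33, edgeR adjusted p = 0.382). A single artery-type cell gave 211 UMIs in ERG CKO replicate 2. Without the 3 highest cells of each library, a setting chosen after seeing the data, the levels were 651 and 454 CPM in WT and 223 and 413 CPM in ERG CKO, which no longer overlapped and were still not called (adjusted p = 0.204). Without ERG CKO replicate 2 the difference was -1.29 and was called (adjusted p = 0.0034). The share of ECs with a Cxcl12 UMI was 71.1% and 61.4% for the WT libraries and 40.5% and 44.1% for those of ERG CKO (40.6%, 33.8%, 15.8% and 23.8% after thinning), and of B cells 0.79% to 2.29%. For WT replicate 2 and ERG CKO replicate 2 the share and the CPM order the libraries differently, so no order is read from that pair.

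Endothelial subtypes were separated by re-clustering ECs without the 304 genes called in them. All members, like the other CXC genes, were left out of the genes used for every clustering. In the general capillary cells (gCap, 973 cells), which line most of the alveolar network, aerocytes (aCap, 302 cells), the large Car4-bearing cells of gas exchange, vein cells and 2 further subclusters, the members gave 13 tests and 4 calls. Those calls were Cxcl1 in gCap, Cxcl10 and Cxcl16 in aCap and Cxcl12 in endothelial subcluster 1, where 1.22%, 10.6% and 1.68% of all genes were called in the 3 groups. In vein cells edgeR called 0 of 2 members and 0% of all genes (425 genes at an unadjusted p under 0.05, 3 called by DESeq2), and in endothelial subcluster 6 it called 0 of 1 member and 0.237% of all genes. In both groups 0 members had an unadjusted p under 0.05 and DESeq2 called 0.

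In gCap, Cxcl1 was at 0 and 1.0 CPM in WT and 15.2 and 65.6 CPM in ERG CKO. Both ERG CKO libraries were above both WT libraries (log2 fold change 5.84 ± 1.13, edgeR adjusted p = 0.0407). The summed WT count was 1 UMI against 72, a CPM ratio of 68.7 with a 95% counting interval of 11.9 to 2750. The call was lost without WT replicate 1 (adjusted p = 0.548) and without WT replicate 2 (adjusted p = 0.803), and with the highest cell of each library left out the gene could not be tested. Cxcl12 in gCap was at 882 and 674 CPM in WT and 329 and 718 CPM in ERG CKO, which overlapped (log2 fold change -0.63, adjusted p = 0.45). Cxcl10 in gCap, at 45.9 and 113.1 against 257.6 and 105.2 CPM, also overlapped (1.17, adjusted p = 0.304). The gCap cells joined subclusters 0, 2 and 7. Subcluster 2 met 3 of 11 gCap markers and was led by interferon-induced genes such as Ifit1. It made up 123 of 236 and 135 of 284 gCap cells in WT, and 103 of 254 and 49 of 199 in ERG CKO. The part of this mix in the gCap values was not tested.

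In aCap, Cxcl10 rose. It was at 0 and 18.7 CPM in WT (0 and 10 UMIs) and at 176.6 and 72 CPM in ERG CKO (109 and 37 UMIs). Both ERG CKO libraries were above both WT libraries (log2 fold change 3.41 ± 0.56, edgeR adjusted p = 0.000236, DESeq2 adjusted p = 0.478), with a CPM ratio of 11.1 and a counting interval of 5.86 to 23.6. Without the 3 highest cells of each library the levels were 0 and 1.9 CPM in WT and 64.8 and 5.8 CPM in ERG CKO. Platelet markers in these cells summed to 37 and 82 CPM in WT and 198 and 86 CPM in ERG CKO (3 of 9 higher, 0 at 0), and their part in the result was not tested.

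Cxcl16 in aCap fell. Its level was 104.7 and 147.9 CPM in WT and 42.1 and 79.8 CPM in ERG CKO, with both ERG CKO libraries below both WT libraries (log2 fold change -1.13 ± 0.29, edgeR adjusted p = 0.0125, DESeq2 adjusted p = 0.181). The call was lost without ERG CKO replicate 1 (adjusted p = 0.141) and without WT replicate 2 (adjusted p = 0.406). The share of aCap with a UMI was 46.5% and 55.6% for the WT libraries and 19.8% and 38.4% for those of ERG CKO (6.98%, 11.1%, 4.95% and 9.30% after thinning, which overlapped), beside 0.24% of B cells. The aCap marker list itself moved in these cells: 10 of 10 markers were below WT in both ERG CKO libraries, with summed levels of 19370 and 19409 CPM in WT and 7130 and 9470 CPM in ERG CKO. Its part in the fall of Cxcl16 was not tested. Cxcl12 was low in aCap in every library (52, 28, 47 and 43 CPM).

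Cxcl12 fell in endothelial subcluster 1 (465 cells), which stayed unnamed. It was at 772 and 487 CPM in WT and 281 and 350 CPM in ERG CKO, without overlap (log2 fold change -1.03 ± 0.22, edgeR adjusted p = 0.0246, DESeq2 adjusted p = 0.0447). The call was lost without WT replicate 1 (adjusted p = 0.348) and after thinning (adjusted p = 0.19). In 7 of the 12 endothelial subclusters Cxcl12 was lower in both ERG CKO libraries than in both WT libraries. These 12 include 1 with 9 of 9 platelet markers (72 cells), 1 with 8 of 8 B-cell markers (23 cells) and 1 lymphatic (25 cells), since the lymphatic class was clustered with the ECs, and among the other 9 it was lower in 4. In subcluster 2 it was at 594 and 418 against 248 and 172 CPM, and in subcluster 4 at 457 and 394 against 154 and 142 CPM. Subcluster 4 stayed unnamed, and the marker list it matched best was that of mural cells (4 of 10). In subcluster 6, which had the highest WT levels, it was at 2007 and 1720 CPM in WT and 1191 and 1981 CPM in ERG CKO, which overlapped (-0.25 ± 0.21, adjusted p = 0.873). The subclusters are parts of the same 4 libraries and are not replicates. The share of all genes lower in both ERG CKO libraries of a subcluster is not given. Differences between subclusters were not tested.

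**Figure D4:**
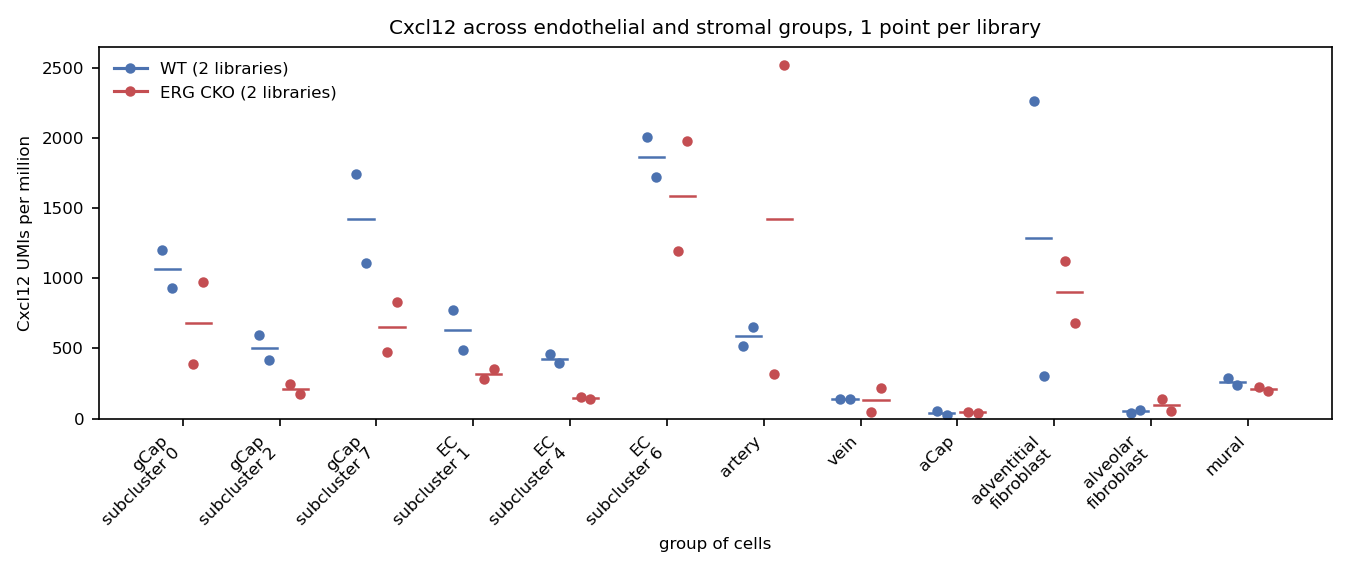
Cxcl12 level (CPM) in the endothelial subclusters and subtypes, each point 1 library. In subclusters 1, 2 and 4 both ERG CKO points lie below both WT points, while in subcluster 6, vein and artery they overlap, and the high ERG CKO artery point rests on 1 cell.

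The minor endothelial members did not pass. Cxcl16 in all ECs was at 26.9 and 49.8 CPM in WT and 22.6 and 38.5 CPM in ERG CKO (log2 fold change -0.42, edgeR adjusted p = 0.619). Cxcl14 was at 6.0 and 1.6 against 7.6 and 4.9 CPM, and Cxcr4, the Cxcl12 receptor, at 11.9 and 20.5 against 19.8 and 21.5 CPM (0.29, adjusted p = 0.701). All 3 overlapped between genotypes.

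Outside the endothelium the neutrophil attractants came mainly from myeloid cells. Cxcl2 in neutrophils was at 21334 and 13585 CPM in WT and 19147 and 15902 CPM in ERG CKO. The log2 difference was 0.03 with a 95% interval of -0.64 to 0.70, where edgeR called 0% of all genes in neutrophils. In alveolar macrophages, the resident phagocytes of the airspace, Cxcl2 was at 1878 and 1808 against 2357 and 1266 CPM, a difference of -0.02 (interval -0.50 to 0.47), and edgeR called 0% of genes there. Classical monocytes held 636 and 1378 CPM in WT and 1715 and 1051 CPM in ERG CKO, with 0.0223% of genes called. Non-classical, patrolling monocytes held 495 and 444 against 438 and 322 CPM (log2 fold change -0.35, adjusted p = 0.894, 0% of genes called). Cxcl2 overlapped between genotypes in the first 3 of these classes, and in non-classical monocytes both ERG CKO libraries were below both WT libraries. In neutrophils, alveolar macrophages and non-classical monocytes 139, 440 and 391 genes had an unadjusted p under 0.05, and DESeq2 called 0, 1 and 3.

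Cxcl1 in those classes varied from library to library. It was at 72 and 37 CPM in WT alveolar macrophages and 75 and 49 CPM in ERG CKO. Neutrophils had 581 and 393 CPM in WT and 19 and 346 CPM in ERG CKO, with both ERG CKO libraries lower (-1.43 ± 0.98, edgeR adjusted p = 0.977). In mural cells it ranged from 0 to 310 CPM with no order by genotype, where 0.0693% of genes were called. In the fibroblast class Cxcl1 was at 50 and 240 CPM in WT and 40 and 0 CPM in ERG CKO, so both ERG CKO libraries were lower (-2.06 ± 0.66, adjusted p = 0.328), where 0.694% of genes were called. It passed in 3 of 12 alternatives, those without the low-count filter, ERG CKO replicate 1 or WT replicate 1. Cxcl2 in the fibroblast class was at 44 and 15 against 88 and 312 CPM, without overlap (2.32 ± 0.53, adjusted p = 0.0702). It passed in 7 of 11 alternatives (not in DESeq2, adjusted p = 0.939), among them those without ERG CKO replicate 1 (adjusted p = 6.62e-08), WT replicate 1 (3.62e-10) and WT replicate 2 (0.0012). Of its 202 UMIs 151 lay in subcluster 1, the cells with endothelial markers. In the ERG CKO libraries 80 and 60 of its UMIs came from 1 cell each.

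The genotype differences of the members were compared directly between ECs and each other class in 1 model per pair. Of 39 member-by-class tests 7 passed, where 0.595% of all genes in these models did (398 of 66898). The tests of a gene all use the same EC values, so the 7 are not independent. Cxcl1 differed from ECs in alveolar macrophages, epithelial cells and the fibroblast class, Cxcl2 in alveolar macrophages, non-classical monocytes and T cells, and Cxcl10 in the fibroblast class, in each case with a smaller or negative difference outside the endothelium. For Cxcl1 in mural cells (-4.15, adjusted p = 0.0856) and neutrophils (-6.04, adjusted p = 0.761) the test did not pass. Epithelial and mural cells were shallower in ERG CKO, and the part of this in their Cxcl1 contrasts was not tested.

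**Figure D5:**
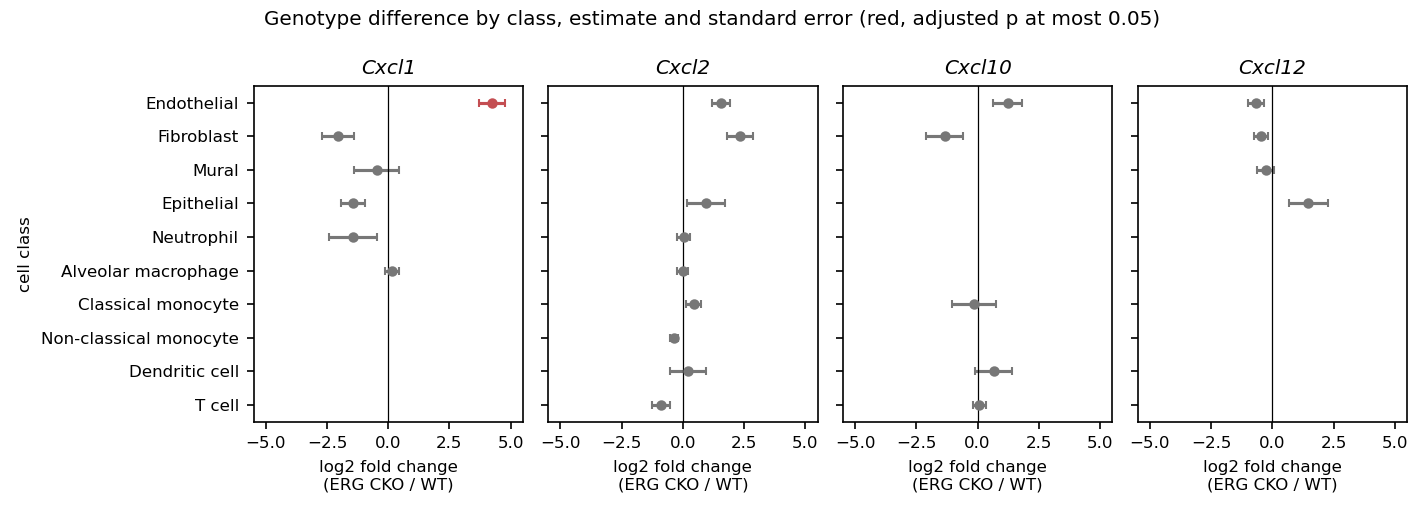
Log2 fold change of ERG CKO over WT with its SE for Cxcl1, Cxcl2, Cxcl10 and Cxcl12 in the classes where the gene was tested. Platelets, where Cxcl12 was tested too (-1.49 ± 0.62), are not drawn. For Cxcl1 the endothelial point is the single one that passed the threshold, and the epithelial, fibroblast, mural and neutrophil points lie below 0.

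The interferon-induced and homeostatic ligands of the stroma and leukocytes were uneven between libraries. Cxcl10 in the fibroblast class was at 46.7 and 439 CPM in WT and 121 and 10 CPM in ERG CKO (-1.35 ± 0.74, adjusted p = 0.706), and 173 UMIs of WT replicate 2 lay in 3 cells. Cxcl10 in T cells was at 15.5 and 29.2 against 23.2 and 22.9 CPM, where 0.0225% of genes were called. In 1 T-cell cluster it stood at 82 and 123 against 97 and 123 CPM. Cxcl12 in the fibroblast class was at 339 and 179 CPM in WT and 170 and 230 CPM in ERG CKO (-0.45, adjusted p = 0.786). Of its 601 UMIs 271 lay in subcluster 1. It stood higher in adventitial-type fibroblasts, which surround vessels and airways (2266 and 305 against 1121 and 684 CPM), than in alveolar-type fibroblasts (42 and 63 against 137 and 54 CPM). Mural Cxcl12 was at 290 and 237 against 227 and 193 CPM, with both ERG CKO libraries lower (-0.28 ± 0.34, adjusted p = 0.976).

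Cxcl14 came mainly from the fibroblast class and mural cells. In the fibroblast class it stood at 404 and 162 CPM in WT and 282 and 266 CPM in ERG CKO (-0.07, adjusted p = 0.994), and in mural cells at 154 and 225 against 163 and 226 CPM. Both overlapped. Within the class the alveolar type held 718 and 350 CPM in WT and 590 and 269 CPM in ERG CKO. Cxcl16 in dendritic cells, the antigen-presenting cells, was at 141 and 147 against 227 and 120 CPM (0.30 ± 0.29, adjusted p = 0.889), where 0.734% of genes were called. A UMI was found in 64.6% of dendritic cells and 0.24% of B cells. Interstitial macrophages held 328 and 733 CPM of Cxcl16 in WT and 383 and 421 CPM in ERG CKO.

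Cxcl13, the B-cell attractant, rested on single cells. Of its 484 UMIs in interstitial macrophages 414 came from 1 cell of WT replicate 1, so no comparison within the class was made. In the sum over whole lung it was at 29.4 and 0.9 CPM in WT and 3.0 and 0.3 CPM in ERG CKO (log2 fold change -3.04 ± 1.53, edgeR adjusted p = 0.754).

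Of the receptors, Cxcr2, through which neutrophils sense Cxcl1 and Cxcl2, was at 1171 and 1094 CPM in WT neutrophils and 1048 and 1154 CPM in ERG CKO neutrophils. The groups overlapped, with a log2 difference of -0.02 and a 95% interval of -0.49 to 0.45. A UMI was found in 95.1% of neutrophils and 0.36% of B cells. In alveolar macrophages it was at 4.5 and 6.0 CPM in WT and 22.2 and 10.1 CPM in ERG CKO, without overlap, and was not called over all genes (1.67 ± 0.43, adjusted p = 0.585). Over the whole lung Cxcr2 was at 12.2 and 21.1 against 24.4 and 34.9 CPM, again without overlap (0.82 ± 0.32, edgeR adjusted p = 0.65). The WT libraries held 38 and 58 neutrophils, against 82 and 87 for ERG CKO. Of all cells of a library, neutrophils made up 1.68% and 2.70% (WT) against 2.65% and 4.70% (ERG CKO). These shares overlapped between genotypes. In such whole-lung sums more cells of a type and more RNA per cell cannot be told apart.

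Cxcr4, the receptor of Cxcl12, was tested in 12 classes and called in 0 of them by edgeR and 0 by DESeq2 (2 at an unadjusted p under 0.05), with log2 fold changes of -0.32 to 1.21. In non-classical monocytes it was at 719 and 820 CPM in WT and 685 and 880 CPM in ERG CKO. In B cells it was at 411 and 359 against 379 and 529 CPM, where 0.292% of genes were called, and in T cells at 206 and 200 against 203 and 256 CPM. These 3 classes overlapped between genotypes. Neutrophil Cxcr4 was at 860 and 737 against 444 and 821 CPM, NK-cell Cxcr4 at 262 and 296 against 334 and 235 CPM (0.0578% of genes called), and mural Cxcr4 at 231 and 282 against 163 and 548 CPM. In alveolar macrophages it was at 143.5 and 109 against 147 and 184 CPM, with both ERG CKO libraries higher (0.39 ± 0.16, adjusted p = 0.977).

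In the sum of all cells of a library, edgeR and DESeq2 called 0 of the 10 members, 2 of which (Cxcl9 and Cxcr2) had an unadjusted p under 0.05. Over all 14154 genes edgeR called 0%, 1077 had an unadjusted p under 0.05, and DESeq2 called 160. The member with the largest whole-lung rise was Cxcl9, at 1.8 and 4.6 CPM in WT and 31.7 and 4.4 CPM in ERG CKO, which overlapped (2.52 ± 0.97, adjusted p = 0.642). Whole-lung Cxcl1, at 41 and 21.5 against 29.0 and 26.1 CPM, did not separate by genotype.

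Of 13 further CXC family genes taken as a list, 12 were in the matrix (Cxcl11 was not found). They gave 37 tests across the classes and 5 calls, all higher in ERG CKO, where 0.521% of the tests of all genes were called. The platelet chemokines Pf4 and Ppbp were higher in the fibroblast class (Pf4 at 36 and 27 against 204 and 501 CPM, log2 fold change 3.30, adjusted p = 0.000979) and in dendritic cells (3.29, adjusted p = 0.00932). Ppbp rose by 3.0 (adjusted p = 0.00104) and 3.1 (adjusted p = 0.045) in the same classes. The dendritic cell calls were lost without ERG CKO replicate 2 (adjusted p = 0.229 for Pf4 and 0.268 for Ppbp), and that of Ppbp also with DESeq2 (0.0877) and without the highest cell (0.0935). Platelet markers moved beside them, at 39 and 34 against 245 and 332 CPM in the fibroblast class and 34 and 57 against 184 and 463 CPM in dendritic cells, with 8 of 9 higher in each. Their part in the result was not tested. Ackr3, a scavenging receptor that takes up Cxcl12, was higher in the fibroblast class (64 and 98 against 217 and 235 CPM, 1.53 ± 0.26, adjusted p = 0.0121). Of its 379 UMIs there 336 lay in subcluster 1, the cells with endothelial markers (125 and 140 against 318 and 390 CPM), while alveolar-type fibroblasts held 3 and adventitial-type fibroblasts 18. The call was lost after thinning (adjusted p = 0.698) and without WT replicate 1 (adjusted p = 0.0681).

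Among endothelial subtypes the list gave 10 tests and 2 calls, 1 in aCap, where 10.6% of all genes were called, and 1 in gCap, where 1.22% were. Ackr3 in aCap was at 33.9 and 16.8 CPM in WT and 105.3 and 81.7 CPM in ERG CKO (1.96 ± 0.36, adjusted p = 0.00076, lost without WT replicate 2 at 0.101), while over all ECs its difference was 0.14 (adjusted p = 0.885). Pf4 rose in gCap (2.12, adjusted p = 0.0437), where platelet markers stood at 23 and 22 against 76 and 47 CPM. That call was lost without WT replicate 1 (adjusted p = 0.548), WT replicate 2 (0.803) or ERG CKO replicate 1 (0.0672), and with subtypes from the clustering of all cells (0.291). Dpp4, the peptidase that trims CXC ligands including Cxcl10 and Cxcl12, fell in ECs by 1.58 (adjusted p = 0.0118) and in aCap by 3.53 on the log2 scale (280 and 215 against 18 and 25 CPM, adjusted p = 5.61e-08). It was the 1 call among 4 chemokine-processing genes tested in ECs, where 2.85% of all genes were called. In gCap Dpp4 was lower and not called (-0.92, edgeR adjusted p = 0.0619). In the other classes tested its log2 fold change ran from -1.54 in mural cells to 0.33 in dendritic cells, without a call.

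The pathways that induce these ligands were read from lists as well. Of 12 interferon-response genes edgeR called 0 in ECs, 0 in gCap and 0 of 7 tested in aCap, with 5, 4 and 2 at an unadjusted p under 0.05 and 0 called by DESeq2 in each. Of 12 immediate early genes, which respond to stress and to tissue dissociation, edgeR called 0 in ECs (7 at an unadjusted p under 0.05, 3 called by DESeq2) and 0 had a positive log2 fold change there (median -0.41), while 5 were higher in aCap, where 10.6% of all genes were called, among them Btg2 (1.30), Fos (1.13) and Fosb (0.96).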

How the data were processed

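Raw UMI counts per gene and cell were deposited as 1 matrix of 20076 genes and 9363 barcodes. Per the labels, the authors processed reads with Cell Ranger 3.1.0 on mm10. Every deposited barcode had at least 500 UMIs. Cells were aligned and clustered in Seurat 5.3.0 (CCA, 30 dimensions, resolution 0.8) and named from fixed markers, so class names are rebuilt and not those of the study. scrublet (scanpy 1.11.5) called 66 cells doublets (0.705%), which were kept. Counts were summed per library and class (at least 10 cells in each library) and tested in edgeR 4.0.16 (R 4.3.3) with quasi-likelihood, TMM and filterByExpr, ERG CKO against WT, with Benjamini-Hochberg adjustment over all genes tested in the class and a threshold of 0.05. SEs were taken from the F statistic. The test was checked on simulated counts. CPM is UMIs scaled to 1000000 per class and library. All 10 members were described, though not in every class where they had at least 20 UMIs, and list genes by count and where called. The members and lists were chosen with earlier results of these data known. Alternatives were DESeq2 1.42.0, no low-count filter, a replicate block, each library left out, doublets or cells over 10% mitochondrial left out, resolution 0.4, no alignment, thinning to 1000 UMIs and the highest cell left out. Leaving out the 3 highest cells, and subtypes from the clustering of all cells, were added after seeing the data.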

Additional observations from a re-analysis of the deposited data

Results flagged for a closer look

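Cxcl1, Cxcl2 and Cxcl10 differed in their genotype effect between ECs and other classes, by the interaction term of a shared edgeR model (7 of 39 tests, where 0.595% of all genes in these models passed, n = 2 libraries per group, adjusted over all genes tested in both classes). The log2 fold change of Cxcl1 in another class minus that in ECs was -3.93 in alveolar macrophages (adjusted p = 0.0379), -5.58 in epithelial cells (adjusted p = 0.0265) and -6.37 in the fibroblast class (adjusted p = 0.00784). Epithelial cells were shallower in ERG CKO (medians of 2370 and 797 UMIs against 18045 and 20738.5), and the part of depth in that contrast was not tested. For Cxcl2 it was -1.51 in alveolar macrophages (adjusted p = 0.0395), -1.83 in non-classical monocytes (adjusted p = 0.021) and -2.44 in T cells (adjusted p = 0.00865). For Cxcl10 it was -2.72 in the fibroblast class (adjusted p = 0.0166), which stood at 46.7 and 439 CPM in WT and 121 and 10 CPM in ERG CKO. In that class 104 cells carried 8 of 8 endothelial markers. Their part in its Cxcl1 and Cxcl10 contrasts was not tested. The tests of a gene all use the same EC values, so the 7 are not independent.

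In the unnamed cells, which entered no class comparison, 4 pairs of a member and a cluster were higher in both ERG CKO libraries than in both WT libraries. In the 941 shallow cells of cluster 0, whose leading genes were endothelial, Cxcl10 averaged 32.2 CPM in ERG CKO (48.6 and 15.9) against 0 and 0 in WT, and Cxcr4 18.7 CPM (17.5 and 19.9) against 14.2 and 17.1. In the 99 cells of cluster 21, which carried proliferation genes, Cxcl10 averaged 120 CPM (57.4 and 183.6) against 14.7 and 0, and Cxcl12 35.6 CPM (17.4 and 53.7) against 9.8 and 10.8. Cxcl2 in cluster 21 was lower, at 1266 and 409 CPM in WT and 261 and 22 CPM in ERG CKO. All 10 members were looked at in these 2 clusters, and the share of all genes ordered this way is not given. The count of 4 is therefore not read as a result about the members. In cluster 0, 1 UMI stood for 5.7 CPM in WT replicate 2 and 4.0 CPM in ERG CKO replicate 2. The replicate 2 values there rest on few UMIs. No test was made in these clusters.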

How the results depend on the processing

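The number of CXC genes called across classes was 1, and it became 2 with DESeq2, 2 with doublets left out, 2 without alignment, 19 without the low-count filter, 0 after thinning to 1000 UMIs and 6 to 10 with 1 library left out. Genes called in ECs (304) became 1114 without the filter, 174 after thinning and 25 to 636 with 1 library left out (122 and 25 when WT replicate 1 or 2 was omitted, and 592 and 636 when ERG CKO replicate 1 or 2 was). Whole-lung calls (0) became 160 with DESeq2, 137 without the filter, 41 after thinning and 1 to 25 with 1 library left out. The cause of these shifts was not tested. For the CXC counts the share of all genes called over the same classes under each setting is not given. Those counts are therefore not read as a result about the members. A library left alone in its group was assumed to vary like the others.

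The labels tie the replicate numbers to no shared animal, batch or day, while sex moved with them, and there are 2 pairs. The differences between replicates correlated across genotypes at 0.296 in ECs and 0.254 over the whole lung. With the replicate block the counts were 8 CXC calls, 1316 genes in ECs (304 of 10676 without it) and 1 in the whole lung. The 8 were Cxcl1, Cxcl2, Cxcl9, Cxcl10 and Cxcl12 in ECs, Cxcl2 in the fibroblast class and in T cells and Cxcr2 in alveolar macrophages. For Cxcl10 and Cxcl12 in ECs the 2 pairs went opposite ways. From WT to ERG CKO, Cxcl10 went from 23.9 to 201.8 CPM in replicate 1 and from 96.7 to 86.4 CPM in replicate 2. Cxcl12 went from 684 to 242 CPM and from 480 to 516 CPM. With the block Cxcl14 in the fibroblast class changed sign to 0.0072 and Cxcl16 in gCap to 0.027.

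Of 589 recomputed gene-level values 499 kept direction and side of the threshold, 35 passed it anew, 19 lost it and 36 changed sign, all 36 of them in results that were not called. With thinning Cxcr4 in ECs became -0.53 and Cxcl12 in the fibroblast class 0.073, and without the 3 highest cells Cxcr4 in ECs became -0.045. With subtypes from the clustering of all cells, Cxcl10, Cxcl12 and Cxcl16 in gCap became -0.56, 0.025 and 0.081. In neutrophils Cxcl2 became -0.0050 without the highest cell, and Cxcr2 became 0.0017 at no more than 10% mitochondrial UMIs and 0.067 without the filter. Cxcl2 in alveolar macrophages became 0.024 at no more than 10% mitochondrial UMIs. With 1 library left out the log2 fold change ran from -0.80 to 0.11 for Cxcl16 in ECs, -0.034 to 0.74 for Cxcr4 in ECs, -0.62 to 0.029 for Cxcl12 in endothelial subcluster 6, -4.45 to 0.89 for Cxcl10 in the fibroblast class, -0.81 to 0.12 for Cxcl12 in the fibroblast class, -0.55 to 0.77 for Cxcl14 in the fibroblast class and -0.73 to 1.79 for Cxcr4 in the fibroblast class. It ran from -0.23 to 0.64 for Cxcl12 in aCap, -0.67 to 0.95 for Cxcl16 in gCap, -0.25 to 0.47 for Cxcl2 in neutrophils, -0.062 to 0.11 for Cxcr2 in neutrophils, -0.76 to 0.047 for Cxcr4 in neutrophils, -0.52 to 0.36 for Cxcl2 in alveolar macrophages and -0.53 to 0.32 for Cxcl1 in the whole lung. It ran from -0.0093 to 0.22 for Cxcl2 in the whole lung, -5.75 to 0.89 for Cxcl13 in the whole lung, -1.41 to 0.44 for Cxcl14 in the whole lung and -0.034 to 0.46 for Cxcr4 in the whole lung. After thinning Cxcl1 in ECs had too few counts for a test.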
